A study of Mus musculus with 2 samples.

Results

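The genes of hypoxia and glycolysis were described across the immune cells of B16-OVA mouse melanomas. The members were 32 named genes, and all 32 were rows of the expression table of 17232 genes. They comprised 13 genes of glucose entry and the glycolytic chain (*Slc2a1*, *Hk1*, *Hk2*, *Gpi1*, *Pfkl*, *Pfkp*, *Aldoa*, *Tpi1*, *Gapdh*, *Pgk1*, *Pgam1*, *Eno1* and *Pkm*) and 4 of its regulator and its lactate and pyruvate branch (*Pfkfb3*, *Ldha*, *Slc16a3* and *Pdk1*). The other 15 were 3 genes of oxygen sensing (*Hif1a*, *Egln1* and *Egln3*) and 12 effectors that hypoxia induces (*Vegfa*, *Adm*, *Bnip3*, *Bnip3l*, *Ero1l*, *P4ha1*, *Ndrg1*, *Hilpda*, *Ankrd37*, *Ddit4*, *Higd1a* and *Mif*). Members were summed and counted below as 17 glycolytic and 15 hypoxia members. Reads of *Gapdh*, *Mif*, *Pgk1*, *Aldoa*, *Tpi1*, *Eno1*, *Pgam1*, *Ldha* and *Pkm* can be shared with near-identical pseudogene copies, so the levels of these genes are uncertain.

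Tumor-infiltrating immune cells (TIIs) came from wild-type (*Maoa* WT) mice and from *Maoa* KO mice, which carry a hypomorphic allele of the monoamine oxidase A gene on a C57BL/6J background after backcrossing from a 129S line. Mice of both groups received B16-OVA cells, a melanoma line that expresses ovalbumin, and the sources give no other allele or treatment for either. Tumors were taken at day 14, 10 tumors were combined per genotype, and sorted DAPI-CD45.2+ cells gave 1 droplet 3′ library each. The stated age of the mice was 8 to 12 weeks and the stated sex female unless indicated otherwise. The table held 2392 cells of the WT-labelled library and 2630 of the KO-labelled library, with 28801253 and 23702018 unique molecular identifiers (UMIs), or medians of 9887.5 and 6945.5 per cell. *Maoa* had 7 UMIs in the WT-labelled library and 15 in the KO-labelled library, which is 0.243 and 0.633 CPM (UMIs scaled to a common total of the cells, as counts per 1e6) and goes against the labels. The sources do not say where the mutation lies relative to the 3′ tag, so these counts are no check of the genotype. The 4 Y-linked genes measured stood at 114 and 118 CPM and *Xist* had 2 and 0 UMIs, which goes against the stated sex. 13 barcodes occurred in both libraries.

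With 1 library per genotype, no test of the genotype was possible, and genotype, tumor pool and library preparation cannot be told apart. Both values are therefore given for each comparison. Ratios are log2 of the CPM with 0.5 UMIs added to each count, with exact 95% intervals that cover counting error only. A gene counted as higher or lower where it lay past 1.5-fold with at least 100 UMIs over both sides, and the share of all such genes that did so is given beside each count of members. The fragments come from transcript ends, so a level is compared between cells for 1 gene and not between genes.

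When oxygen is scarce, the prolyl hydroxylases that mark the alpha subunits of the hypoxia-inducible factors (HIFs) for degradation lose activity, and the stabilised factor binds a short core motif beside its target genes. HIF targets include the glucose transporter and most glycolytic enzymes, which sustain ATP production by fermenting glucose to lactate, and genes for angiogenesis, mitophagy, lipid storage and redox folding of proteins. Solid tumors hold poorly perfused regions in which macrophages accumulate, and activated lymphocytes raise glycolysis without any lack of oxygen.

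Promoters were examined because the members moved together across clusters, as described below. RefSeq windows (assembly GRCm38.p6, the mm10 build) of 300 bases, 250 before and 50 after an annotated start, were matched for 30 of the 32 members, and none was matched for *Bnip3l* and *Ndrg1*. *Ero1l* was matched under its RefSeq name *Ero1a*. The HIF core ACGTG, searched as ACGTG and as its reverse complement CACGT, occurred in at least 1 window of 23 of these 30 members. It was in 61.0% of the 41 member windows, against 19.6% of all 32851 windows. By gene, it was found for 21.8% of all genes with a window and for 27.7% of the 12168 of them that the expression table lists. The second core form, GCGTG with its complement CACGC, occurred for 20 of 30 members and in 58.5% of member windows, against 32.4% of all windows and 51.4% of the genes in the table. The motifs share the letters CGTG, matches of both may overlap, and ACGTG and CACGT overlap in the palindrome CACGTG. A match is a description of these letters and not a bound site. *Gpi1*, *Pfkl*, *Pfkp*, *Tpi1*, *Eno1*, *Pdk1* and *Adm* held no ACGTG in these windows.

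The 250 bases before the start are printed for the 5 members that, among the 9 most above the other TAM/Mono cells in the cluster described below, have a single listed start. They are written 5′ to 3′ in the direction of the gene, with ACGTG or CACGT in capitals.
*Adm*, chr7:110627407-110627656, plus strand: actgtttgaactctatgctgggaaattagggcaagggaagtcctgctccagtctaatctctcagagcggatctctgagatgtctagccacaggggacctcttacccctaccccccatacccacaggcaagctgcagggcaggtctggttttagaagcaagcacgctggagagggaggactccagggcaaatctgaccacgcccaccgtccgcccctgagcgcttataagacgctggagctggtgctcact
*Egln3*, chr12:54203875-54204124, minus strand: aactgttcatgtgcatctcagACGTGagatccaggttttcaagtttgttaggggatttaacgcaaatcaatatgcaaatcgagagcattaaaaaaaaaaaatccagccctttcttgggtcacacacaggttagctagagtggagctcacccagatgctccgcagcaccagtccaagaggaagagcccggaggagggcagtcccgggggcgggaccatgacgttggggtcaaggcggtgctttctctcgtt
*Ero1l*, chr14:45318573-45318822, minus strand: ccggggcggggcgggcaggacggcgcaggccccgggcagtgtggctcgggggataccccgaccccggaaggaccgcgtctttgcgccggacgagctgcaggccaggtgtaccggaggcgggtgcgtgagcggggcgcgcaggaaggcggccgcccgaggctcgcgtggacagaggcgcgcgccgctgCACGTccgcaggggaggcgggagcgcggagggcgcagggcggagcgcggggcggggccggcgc
*Bnip3*, chr7:138909507-138909756, minus strand: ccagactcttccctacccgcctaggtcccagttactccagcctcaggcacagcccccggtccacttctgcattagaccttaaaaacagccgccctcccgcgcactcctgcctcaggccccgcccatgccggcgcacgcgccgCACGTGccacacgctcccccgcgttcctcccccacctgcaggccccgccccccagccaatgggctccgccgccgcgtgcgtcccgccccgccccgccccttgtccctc
*Slc2a1*, chr4:119108495-119108744, plus strand: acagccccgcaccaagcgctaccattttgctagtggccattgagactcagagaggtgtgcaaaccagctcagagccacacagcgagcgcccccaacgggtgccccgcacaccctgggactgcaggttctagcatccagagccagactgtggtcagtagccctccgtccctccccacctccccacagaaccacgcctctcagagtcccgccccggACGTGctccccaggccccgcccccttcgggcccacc
The match began at position -36 relative to the start in *Slc2a1*, -63 in *Ero1l* and -229 in *Egln3*. *Bnip3* held the palindrome, which counts as 2 overlapping matches. The *Adm* window is shown as 1 of the 7 without a match although *Adm* had the largest ratio of the 5 in the cluster in question.

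Cells were clustered without the 32 members among the variable genes, and 13 of 15 clusters held at least 50 cells. By markers, clusters 0, 3, 5 and 10 were tumor-associated macrophages and monocytes (TAM/Mono), clusters 1, 6 and 9 T cells, cluster 4 natural killer (NK) cells, clusters 8, 12 and 14 dendritic cells (DCs), cluster 11 plasmacytoid DCs and cluster 13 B cells. Cluster 1 was led by *Dapl1*, *Lef1* and *Tcf7*, cluster 6 by histone genes and *Rrm2*, and cluster 9 by *Foxp3*, *Izumo1r* and *Ctla4*. The genes *Gas6*, *Ccl8* and *Folr2* led cluster 10, and *Cxcl3*, *Inhba*, *Arg1* and *Thbs1* led cluster 3. Clusters 2 and 7 lay closest to T cells by markers but had 0 T cell markers and 1 marker of another class among their leading genes, so they stayed unnamed. Cluster 6 had 0 of either kind among its leading genes and was named from its 13 detected T cell markers. The clusters and the levels come from the same cells, so differences between clusters are descriptions without a test.

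Cluster 3 stood apart from every other cluster of at least 50 cells. Of the 32 members, 27 were highest there in the WT-labelled library and 27 in the KO-labelled library. The members summed to 28180 CPM (28010 to 28360) there in the WT-labelled library and 28890 CPM (28580 to 29210) in the KO-labelled library. The next cluster by this sum was cluster 2 at 15990 CPM in the first library and cluster 10 at 15250 CPM in the second, and with all cells included the plasmacytoid DCs were lowest at 5621 and 5340 CPM. Without 12 cells rich in melanoma or erythrocyte RNA, which are described further on, cluster 1 was lower still at 4697 and 4288 CPM. The lowest levels given next include all cells. Without the 12 cells cluster 1 lay below the lowest cluster named for *Pfkl*, *Aldoa*, *Tpi1*, *Pgam1*, *Bnip3*, *Ero1l*, *Ndrg1* and *Higd1a* in both libraries, for *Gpi1*, *Pfkp*, *Gapdh*, *Pkm* and *Ldha* in the WT-labelled library, and for *Pgk1* and *Slc16a3* in the KO-labelled library. The cluster with the highest level was the same in both libraries for 29 of 32 members.

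**Figure D1:**
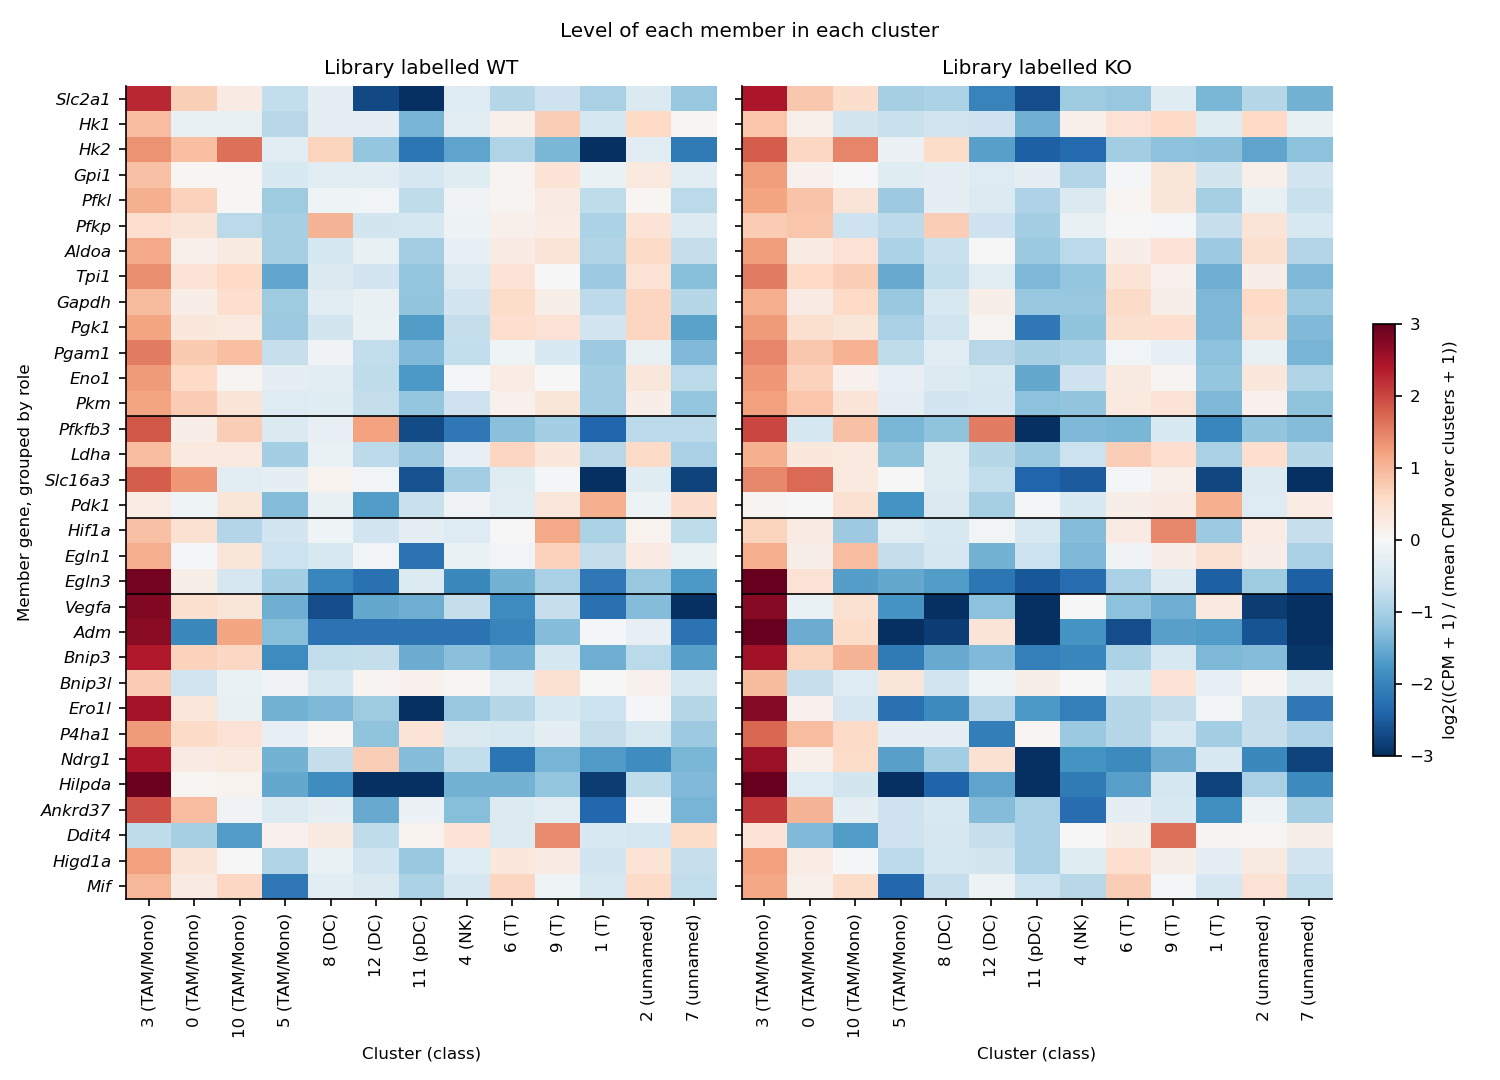
Level of each member (rows, grouped by role with black lines) in each cluster of at least 50 cells (columns), for the WT-labelled library (left) and the KO-labelled library (right). Colour gives log2 of the CPM plus 1 over the mean of the clusters plus 1, from blue (low) to red (high). The column of cluster 3 is red for nearly every row in both panels, 27 members being highest there in each library, while *Hif1a* and *Ddit4* are highest in cluster 9 and *Pdk1* in cluster 1.

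The glucose transporter *Slc2a1* reached 349 CPM in cluster 3 of the WT-labelled library and 368 CPM in the KO-labelled library. Cluster 0 was next at 118 and 121 CPM, and plasmacytoid DCs were lowest at 8.08 and 9.91 CPM. The level in cluster 3 was thus well above the interval of cluster 0 in each library. *Hk2*, the inducible hexokinase that traps glucose in the cell, was highest in cluster 10 of the WT-labelled library (203 CPM against 165 in cluster 3) and in cluster 3 of the KO-labelled library (249.8 CPM against 193 in cluster 10). Its lowest level was 7.05 CPM in cluster 1 of the former and 11.9 CPM in plasmacytoid DCs of the latter.

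*Pgk1*, the first ATP-yielding enzyme of the chain, stood at 219 and 202 CPM in cluster 3. It was next highest in cluster 2 of the WT-labelled library (152 CPM) and in cluster 9 of the KO-labelled library (117 CPM), and lowest in plasmacytoid DCs (29.6 and 17.8 CPM). *Pkm*, pyruvate kinase, was at 2900 and 2805 CPM in cluster 3 and at 2163 and 2121 CPM in cluster 0, the next. The lowest *Pkm* levels were 565 CPM in cluster 7 and 465 CPM in cluster 1. Both enzymes were therefore highest in cluster 3 of each library with separate intervals.

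The other glycolytic enzymes kept this order with few exceptions. *Hk1*, the constitutive hexokinase, *Gpi1*, glucose phosphate isomerase, *Pfkl*, the liver-type phosphofructokinase subunit, *Aldoa*, aldolase, *Tpi1*, triose phosphate isomerase, *Gapdh*, *Pgam1*, phosphoglycerate mutase, and *Eno1*, enolase, were highest in cluster 3 of both libraries. The intervals of *Hk1* overlapped those of the next cluster in both libraries and those of *Pfkl* did in the KO-labelled library. Their levels in cluster 3 were 84.9 and 61.1 CPM for *Hk1*, 973 and 1197 for *Gpi1*, 182 and 156 for *Pfkl*, 3144 and 3077 for *Aldoa*, 1700 and 1744 for *Tpi1*, 4866 and 5312 for *Gapdh*, 1260 and 1057 for *Pgam1*, and 2407 and 2240 for *Eno1*. *Hk1*, *Aldoa* and *Eno1* were lowest in plasmacytoid DCs of both libraries, *Pfkl* and *Tpi1* in cluster 5 and *Pgam1* in cluster 7. *Gpi1* and *Gapdh* were lowest in plasmacytoid DCs of the WT-labelled library and in NK cells and cluster 1 of the KO-labelled library, with *Gapdh* at 846 CPM in cluster 1 of the WT-labelled library without the 12 cells, against 1116 CPM in plasmacytoid DCs. *Pfkp*, the platelet-type phosphofructokinase subunit, was highest in the DCs of cluster 8 in the WT-labelled library (278 CPM against 194 in cluster 3) and in cluster 0 of the KO-labelled library (196 CPM), where the interval overlapped that of cluster 3 (187 CPM). Its lowest levels were 67.4 CPM in cluster 5 and 53.5 CPM in plasmacytoid DCs.

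*Pfkfb3*, which makes the activator of phosphofructokinase, reached 85.4 and 119 CPM in cluster 3. It was next in the *Ccl22*- and *Fscn1*-led DCs of cluster 12 at 53.8 and 85.5 CPM, and the intervals of both clusters overlapped in each library. It had 1 UMI in the plasmacytoid DCs of either library. *Ldha*, which turns pyruvate into lactate, stood at 2421 and 2498 CPM in cluster 3 and at 2000 and 1965 CPM in the cycling T cells of cluster 6. Its lowest levels were 604 CPM in plasmacytoid DCs and 510.2 CPM in cluster 5. *Ldha* was thus less concentrated in cluster 3 than *Slc2a1* was.

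The lactate exporter *Slc16a3* was highest in cluster 3 of the WT-labelled library (431 CPM) but in cluster 0 of the KO-labelled library (316 CPM against 264 in cluster 3). Its lowest levels were 9.4 CPM in cluster 1 and 9.42 CPM in cluster 7. *Pdk1*, a kinase that shuts pyruvate out of the mitochondrion and a textbook HIF target, was highest in the *Lef1* and *Tcf7* T cells of cluster 1 at 74.1 and 78.9 CPM, and stood at 40.6 and 39.2 CPM in cluster 3. In the WT-labelled library its interval overlapped that of the next cluster, 7, at 50.6 CPM.

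Among the oxygen sensors, *Egln3*, a prolyl hydroxylase gene that HIF itself induces, was at 298 and 229 CPM in cluster 3, while cluster 0 had 44.7 and 38.1 CPM. *Egln1*, the main prolyl hydroxylase, was low everywhere and highest in cluster 3 at 35.4 and 35.6 CPM, with intervals that overlapped the next cluster, and lowest at 2.7 CPM in plasmacytoid DCs and 5.45 CPM in cluster 12. *Hif1a*, which encodes the HIF alpha subunit and is regulated mainly as a protein, was highest in the *Foxp3* T cells of cluster 9 at 211 and 229 CPM. Cluster 3 followed at 177 and 133 CPM, with intervals that overlapped in the WT-labelled library, and the lowest levels were 49.4 CPM in cluster 1 and 33.4 CPM in NK cells.

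*Hilpda*, an inhibitor of lipid breakdown at lipid droplets, reached 1290 and 1487 CPM in cluster 3 against 178 CPM in cluster 10 and 130.4 CPM in cluster 0, the next clusters, and fell to 12.8 CPM in cluster 12 and 11.9 CPM in plasmacytoid DCs. *Ero1l*, an oxidase that drives disulfide formation in the endoplasmic reticulum, stood at 522 and 591 CPM against 117 and 94.9 CPM in cluster 0, with lowest levels of 10.8 CPM in plasmacytoid DCs and 17.7 CPM in cluster 5, or 8.56 and 11.4 CPM in cluster 1 without the 12 cells. *Bnip3*, a receptor for mitophagy, stood at 609 and 635 CPM, next to 187 CPM in cluster 0 and 225 CPM in cluster 10, and was lowest at 30.1 CPM in cluster 5 and 13.7 CPM in cluster 7, or at 14.7 and 6.92 CPM in cluster 1 without these cells. All 3 had intervals in cluster 3 that lay above those of the next cluster in each library.

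*Ndrg1*, a stress-response gene of the N-myc downstream family, was at 366 and 363 CPM in cluster 3, against 113 CPM in cluster 12 and 87.3 CPM in cluster 10 as the next. Its lowest levels were 14.01 CPM in cluster 6 and 5.94 CPM in plasmacytoid DCs, or 6.12 and 1.98 CPM in cluster 1 without the 12 cells. *Vegfa*, the angiogenic growth factor, was at 69.4 and 71.1 CPM in cluster 3 against 13.3 CPM in cluster 0 of the WT-labelled library and 14.03 CPM in cluster 10 of the KO-labelled library as the next clusters of at least 50 cells, and had 0 UMIs in cluster 7 of both, which allows up to 5.19 and 3.16 CPM. *Adm*, the vasodilator peptide adrenomedullin, was at 29.3 and 73.8 CPM in cluster 3 against 9.67 and 12.5 CPM in cluster 10, and had 0 UMIs in plasmacytoid DCs of both libraries, which allows up to 9.94 and 7.31 CPM. *Vegfa* and *Adm* were thus low outside cluster 3 in both libraries.

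Of the remaining effectors, *Ddit4*, an inhibitor of mTORC1 signalling, was highest in cluster 9 at 224 and 189.6 CPM and lowest in cluster 10 at 25.3 and 17.9 CPM. *Mif*, a secreted inhibitor of macrophage migration, was highest in cluster 3 at 2012 and 2226 CPM, next in cluster 6 at 1566 and 1664 CPM, and lowest in the monocytes of cluster 5 at 227 and 195 CPM. *Bnip3l*, a second mitophagy receptor, *P4ha1*, a subunit of the collagen prolyl hydroxylase, *Ankrd37*, an ankyrin-repeat gene, and *Higd1a*, a mitochondrial respiratory-chain factor, were all highest in cluster 3, at 275 and 289, 119.7 and 140.4, 179 and 247, and 728 and 719 CPM. Their lowest levels lay in cluster 0 (*Bnip3l*), cluster 12 (*P4ha1*), cluster 1 or NK cells (*Ankrd37*) and plasmacytoid DCs (*Higd1a*). *Ddit4* was therefore the only effector that was not highest in cluster 3, and the order of the other clusters varied between the effectors.

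Cluster 3 was next set against the other TAM/Mono cells of the same library, which addresses how the members divide the macrophages and monocytes. Those other cells included cluster 5, closest to monocytes by markers, with 138 and 241 cells. Its hypoxia members had the lowest sum of the clusters of at least 50 cells, at 948 and 839 CPM. Its part in the ratios was not tested. In the WT-labelled library 28 of 32 members were at least 1.5-fold higher in cluster 3, where 10.1% of 6930 genes were, and 0 were lower, where 29.6% of genes were. In the KO-labelled library 30 were higher, against 10.5% of 6288 genes, and 0 lower, against 33.8%. All 32 members lay above 0 in each library, and their median log2 ratio was 1.05 and 1.14 beside -0.27 and -0.32 for all genes. The exceptions to the fold were *Hk2*, *Pfkp*, *Pdk1* and *Ddit4* in the WT-labelled library and *Slc16a3* and *Pdk1* in the KO-labelled library. The 15 hypoxia members summed to 6759 CPM in cluster 3 against 2476 CPM in the other TAM/Mono cells of the WT-labelled library, a log2 ratio of 1.45 (1.42 to 1.48), and to 7319 against 2108 CPM in the KO-labelled library, 1.80 (1.76 to 1.83). For the 17 glycolytic members the ratio was 0.84 (0.83 to 0.86) and 0.97 (0.95 to 0.99). At the coarser resolution of 0.4, where the counterpart of cluster 3 took in 704 and 462 cells, the ratio over all members was 0.74 and 0.71 instead of 0.97 and 1.14.

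The largest ratios belonged to effectors and to *Egln3*. *Adm* had a log2 ratio of 3.11 (2.52 to 3.79) in the WT-labelled library and 3.86 (3.30 to 4.45) in the KO-labelled library, on 106 and 81 UMIs in cluster 3. *Egln3* had 3.05 (2.87 to 3.24) and 3.40 (3.11 to 3.69). *Hilpda* had 3.02 (2.93 to 3.11) and 3.89 (3.76 to 4.01). *Vegfa* (2.58 and 3.002), *Ero1l* (2.48 and 3.15), *Ndrg1* (2.32 and 2.55), *Bnip3* (1.90 and 2.02), *Slc2a1* (1.84 and 1.97) and *Pfkfb3* (1.57 and 2.05) followed. All 9 had intervals well above the 1.5-fold line in both libraries.

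The difference was also seen cell by cell. UMIs were drawn down to 3000 per cell, and the 14 hypoxia members other than *Mif* were counted. This cost 1 cell of cluster 3, 9 of cluster 1 and 5 of cluster 9, all of the KO-labelled library, and none of clusters 0 and 10. At least 4 of them had a UMI in 80.5% (76.0 to 84.4) of the cells of cluster 3 in the WT-labelled library and in 82.5% (75.1 to 88.4) in the KO-labelled library. The share was 35.7% and 27.3% in cluster 0, 29.6% and 26.5% in cluster 10, 32.9% and 25.6% in cluster 9, and 1.96% and 2.04% in cluster 1. At 2000 UMIs it was 69.5% and 70.3% in cluster 3, 18.1% and 13.5% in cluster 0 and 17.4% and 14.05% in cluster 10. Without thinning it was 96.2% (93.6 to 97.9) and 97.1% (92.7 to 99.2) in cluster 3, 94.8% (89.0 to 98.1) and 86.0% (78.5 to 91.6) in cluster 10 and 83.3% and 70.3% in cluster 0. The unthinned shares of clusters 3 and 10 thus overlapped in their intervals in the WT-labelled library, where the median depth was 9190 UMIs in cluster 3 and 21973 UMIs in cluster 10, and those thinned to 2000 or 3000 UMIs did not. By gene, *Hilpda* had a UMI in 82.1% and 83.2% of the thinned cells of cluster 3 and in 4.58% and 6.63% of those of cluster 1, *Bnip3* in 67.9% and 77.4% against 4.58% and 2.81%.

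**Figure D2:**
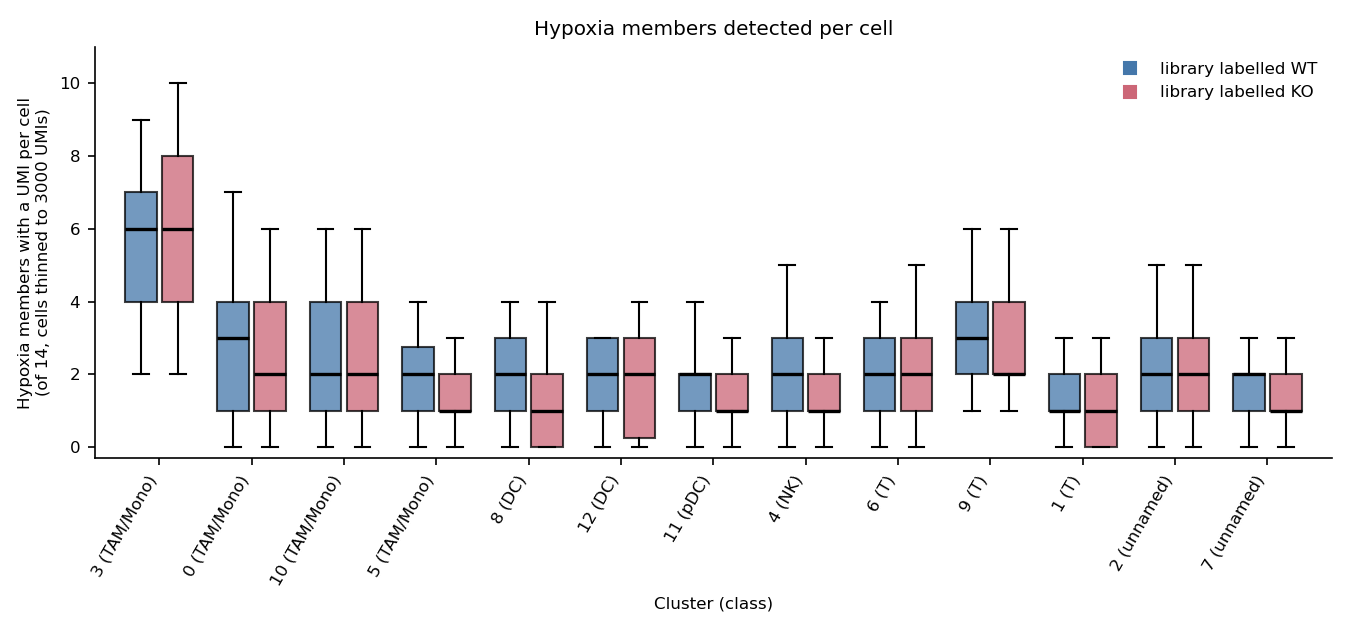
Number of the 14 hypoxia members other than *Mif* with at least 1 UMI per cell, after thinning to 3000 UMIs, by cluster. Boxes give the quartiles with the median as a black line, whiskers run from the low to the high tail of the cells, blue the WT-labelled library and red the KO-labelled library. The median is 6 in cluster 3 of both libraries and at most 3 in every other cluster shown.

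Other genes of the same pathways, taken from lists outside the 32 members, were counted in the same contrast. Only the 32 members were kept out of the variable genes, so these other genes could take part in forming the clusters. The hypoxia list holds *Arg1* (log2 ratio 3.31 and 3.09), which was among the genes that led cluster 3. The counts are therefore a description and no separate support. Of the other hypoxia and HIF genes with at least 100 UMIs, 14 of 27 were at least 1.5-fold higher and 5 lower in cluster 3 of the WT-labelled library, and 15 of 23 higher and 4 lower in the KO-labelled library. Of the other glycolysis genes, 2 of 14 and 2 of 15 were higher and 5 and 8 lower. The higher hypoxia genes included *Nos2* (inducible nitric oxide synthase, log2 ratio 3.50 in the WT-labelled library), *Mxi1* (a Myc antagonist, 2.12 and 2.47), *Hmox1* (heme oxygenase, 2.02 and 1.81) and *Bhlhe40* (a transcriptional repressor, 1.59 and 2.38). The lower genes included the muscle enolase *Eno3* (-1.15 and -2.27), *Adpgk*, an ADP-dependent glucokinase (-1.57 and -1.05), *Ppfia4*, a liprin gene (-1.36 and -1.82), and *Plod1*, a lysyl hydroxylase (-0.92 and -1.51). Over all genes 10.1% were higher and 29.6% lower in the WT-labelled library and 10.5% and 33.8% in the KO-labelled library, and nothing is read from the few other glycolysis genes counted.

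Between the libraries, the question was whether the members differed by *Maoa* label within a class. In TAM/Mono cells (970 and 833 cells) the members summed to 18560 CPM in the WT-labelled library and 15050 CPM in the KO-labelled library, a log2 ratio of -0.30 (-0.31 to -0.29). Of 32 members, 30 lay below 0, and the median was -0.33 beside 0.06 for all genes. 7 members were at least 1.5-fold lower in the KO-labelled library, against 4.85% of 8338 genes, and 0 were higher, against 4.2%. 6 of these 7 were hypoxia members. The 12 neutrophil markers summed to 603 CPM in TAM/Mono cells of the WT-labelled library, with 0 of them at 0, and to 222 CPM in the KO-labelled library, with 2 at 0, and their part in these counts was not tested.

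*Egln3* stood at 115 CPM in the WT-labelled library and 47.0 CPM in the KO-labelled library (-1.29, -1.45 to -1.13). *Hilpda* stood at 501 and 269.8 CPM (-0.89, -0.96 to -0.82). *Vegfa*, at 29.0 and 16.5 CPM, gave -0.82 (-1.11 to -0.54). *Ero1l* (223 and 130.4 CPM, -0.77), *Ndrg1* (162 and 98.8 CPM, -0.71), *Hif1a* (122 and 79.3 CPM, -0.62) and *Hk1* (50.7 and 32.9 CPM, -0.62) were the others past the fold. The 25 members within 1.5-fold ran from -0.48 for *Ddit4* to 0.27 for *Adm*, and *Ldha* at -0.31 and *Pkm* at -0.25 were typical of the enzymes.

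These pooled ratios moved with the makeup of the class. Cluster 3 held 364 of the 970 TAM/Mono cells of the WT-labelled library and 138 of the 833 of the KO-labelled library. These numbers are given as the n of each library and are not compared. When both libraries were set to 1 mix of the 4 clusters, the members summed to 17170 and 17020 CPM, a ratio of -0.01, with 0 members lower and 1, *Adm*, higher. *Ero1l* (0.01) and *Hilpda* (0.02) then lay above 0, *Vegfa* was at -0.07, *Ndrg1* at -0.06, *Hif1a* at -0.37, *Hk1* at -0.33 and *Egln3* at -0.43.

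**Figure D3:**
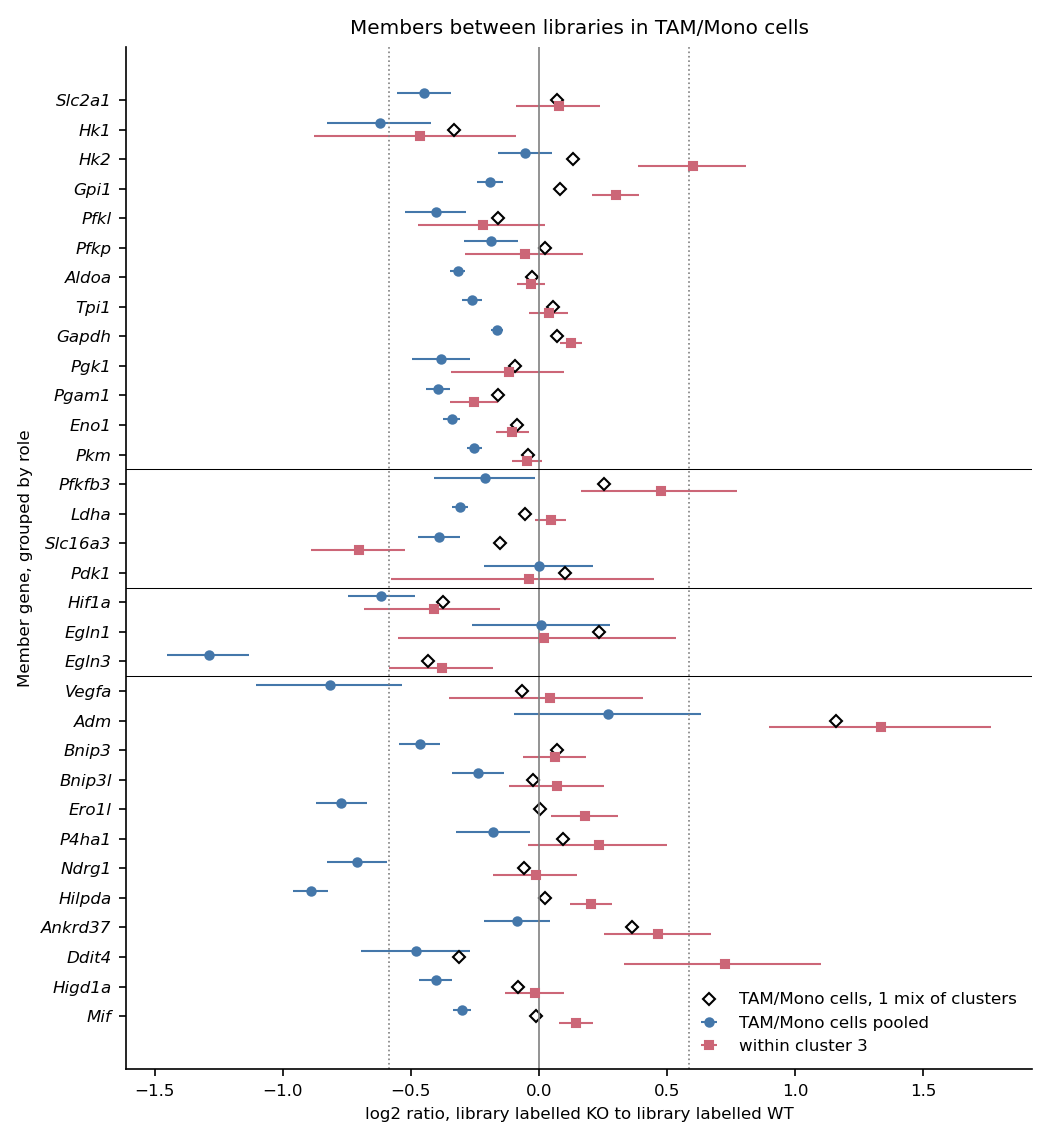
Log2 ratio of each member (rows, grouped by role) between the KO-labelled library and the WT-labelled library. Blue circles are TAM/Mono cells pooled and red squares cluster 3 alone, both with 95% counting intervals, open diamonds are TAM/Mono cells at 1 mix of clusters, and dotted lines mark 1.5-fold. Most circles lie left of 0, such as *Hilpda* at -0.89, while most diamonds lie near 0, and the square of *Adm* lies at 1.33.

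Within cluster 3 the members summed to 28180 and 28890 CPM, a ratio of 0.04 (0.02 to 0.05), with 18 members above 0 and 14 below. 3 of 32 were at least 1.5-fold higher in the KO-labelled library, against 4.87% of 4023 genes, and 1 was lower, against 9.62%. *Adm* was at 29.3 and 73.8 CPM (1.33, 0.90 to 1.76). It had a UMI in 36 of the 364 cells of the WT-labelled library. Of its UMIs in all TAM/Mono cells, 1 cell held 15 of 134 in the WT-labelled library and 1 cell 13 of 121 in the KO-labelled library. *Ddit4* was at 48.1 and 79.3 CPM (0.73, 0.33 to 1.10), and *Hk2* at 165 and 249.8 CPM (0.60, 0.39 to 0.81). The lower one was *Slc16a3*, at 431 and 264 CPM (-0.70, -0.89 to -0.52). *Egln3* (-0.38, -0.58 to -0.18) and *Hif1a* (-0.41, -0.68 to -0.15) were below 0 without passing the fold, and *Vegfa* stood at 69.4 and 71.1 CPM. *S100a8* and *S100a9*, neutrophil genes, summed to 908 CPM in cluster 3 of the WT-labelled library and 18.2 CPM in the KO-labelled library, and their part in these ratios was not tested.

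Set beside each other, TAM/Mono cells held more of most members than T cells of the same library. In the WT-labelled library 16 of 32 members were at least 1.5-fold higher in TAM/Mono cells, against 25.7% of 8606 genes, and 1, *Ddit4*, was lower, against 31.2%. In the KO-labelled library 18 were higher, against 27.1% of 7865 genes, and 2, *Pdk1* and *Ddit4*, were lower, against 24.4%. The median of the hypoxia members was 1.66 and 1.23 and that of the glycolytic members 0.49 and 0.68, beside -0.16 and -0.01 for all genes. As sums the order held in the WT-labelled library, with 0.68 for hypoxia and 0.36 for glycolytic members, and turned in the KO-labelled library, with 0.38 and 0.51. Summed over all members the ratio was 0.42 and 0.48, but 0.11 in each library when ribosomal protein and mitochondrial genes were left out of the total. *Hk2* (2.29 and 2.18), *Slc2a1* (2.11 and 1.95) and *Pfkfb3* (2.41 and 1.86) were the glycolytic members furthest above T cells. *Vegfa* had 17 and 37 UMIs in all T cells, of which 26 in the KO-labelled library were in 2 cells described next.

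Some cells of the T cell clusters held melanoma RNA, and whether they were T cells, melanoma cells or doublets was not tested. Over all clusters 7 cells had at least 10 UMIs of 8 melanoma genes (among them *Pmel*, *Mlana* and *Dct*), and 5 others had at least 500 UMIs of erythrocyte genes. Of the 7, 1 and 2 lay in cluster 1 of the WT- and KO-labelled libraries, 1 in cluster 9, 1 in cluster 2 and 2 in cluster 10. In cluster 1, 2 cells of the KO-labelled library held 1203 of its 1209 melanoma UMIs, all 26 of its *Vegfa* UMIs, 86 of 90 for *Ndrg1*, 150 of 173 for *Ero1l* and 76 of 90 for *Bnip3*. 1 cell of the WT-labelled library with 16 melanoma UMIs held 43 of 50 *Ero1l* and 560 of 1253 *Gapdh* UMIs of its cluster. The thresholds were chosen after these cells were seen, and no cells were left out as doublets. The pooled sum and the members past the fold between libraries in T cells are therefore also given without the 12 cells. The comparison of TAM/Mono with T cells included all cells. Without the 12 cells its counts were 17 higher and 1 lower in the WT-labelled library and 19 higher and 2 lower in the KO-labelled library, and its summed ratios 0.44 and 0.54.

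In T cells (577 and 688 cells) the members summed to 13850 and 10750 CPM, a ratio of -0.36 (-0.38 to -0.35), and -0.40 without the 12 cells. 4 of the 30 members with enough UMIs were at least 1.5-fold lower in the KO-labelled library, against 7.76% of 7336 genes, and 2 were higher, against 4.59%. *Pfkl* was at 89.2 and 59.4 CPM (-0.59), *Pfkp* at 142 and 92.5 CPM (-0.62), *Pgk1* at 128 and 82.9 CPM (-0.62) and *P4ha1* at 34.9 and 22.8 CPM (-0.61). *Pdk1* was at 35.4 and 57.1 CPM (0.69, 0.45 to 0.93). *Ndrg1* was at 16.3 and 27.0 CPM (0.73), but without the 12 cells it was at 14.8 and 11.1 CPM (-0.41, -0.90 to 0.05). The other 5 members past the fold kept their side without these cells, *Pdk1* at 0.70.

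The T cell ratio, too, moved with the makeup of the class. With 1 mix of clusters 1, 6 and 9 it was -0.06, with 0 members past the fold in either direction. Of the 3 clusters, cluster 6 had 14940 and 14550 CPM of members (-0.04), cluster 9 had 13660 and 13360 CPM (-0.03), and cluster 1 had 4697 and 4288 CPM (-0.13) without the 12 cells. Genes of the cell cycle summed to 5315 CPM in the T cells of the WT-labelled library and 3225 CPM in the KO-labelled library, and their part in the pooled ratio was not tested. The 12 neutrophil markers summed to 219 and 61.0 CPM and the 20 TAM markers to 900 and 752 CPM in T cells. The median depth was 8994 and 4892 UMIs. The part of this other RNA and of depth was not tested either.

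The cycling cluster 6 was set against cluster 1 without the 12 cells. In the WT-labelled library 22 of 26 members were at least 1.5-fold higher in cluster 6, where 53.4% of 5350 genes were, and 1 was lower, where 7.63% were. In the KO-labelled library 21 of 24 were higher, against 46.6% of 3932 genes, and 1 lower, against 10.1%. The background is high, with a median of 0.65 and 0.53 over all genes, and the members' median was 1.49 and 1.66. *Slc16a3* (94.4 against 8.56 CPM and 94.4 against 9.4 CPM) had the largest ratio of the members counted in both libraries, 3.36 and 3.30. *Tpi1* (2.22 and 2.61) and *Gapdh* (2.14 and 2.22) were among the enzymes furthest above. *Pdk1* was the single lower member, at 27.8 against 75.8 CPM and 42.2 against 82.1 CPM.

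NK cells (187 and 267 cells) differed between the libraries in most members that could be counted. The members summed to 8988 CPM in the WT-labelled library and 6001 CPM in the KO-labelled library, a ratio of -0.58 (-0.63 to -0.54). Of the 18 members with at least 100 UMIs, 12 were at least 1.5-fold lower in the KO-labelled library, against 3.94% of 2592 genes, and 0 were higher, against 3.24%. All 18 lay below 0, with a median of -0.66 beside 0.0044 for all genes. This class was a single cluster. The ratio was -0.46 as a mean over cells, and 1 member was lower at 2-fold.

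9 of the 12 were glycolytic. *Tpi1* was at 485 and 271 CPM (-0.84, -1.04 to -0.64), *Aldoa* at 1210 and 745 CPM (-0.70, -0.82 to -0.58) and *Eno1* at 958 and 594 CPM (-0.69, -0.83 to -0.55). *Pkm* (828 and 520.2 CPM, -0.67), *Gapdh* (1718 and 1136 CPM, -0.60), *Gpi1* (409.6 and 269.9 CPM, -0.60), *Pfkl* (80.2 and 50.6 CPM, -0.66), *Pgk1* (58.4 and 35.1 CPM, -0.73) and *Slc2a1* (54.9 and 31.8 CPM, -0.78) completed them. Of the hypoxia members, *Hif1a* was at 73.2 and 33.4 CPM (-1.12, -1.71 to -0.58), *Ddit4* at 109.8 and 58.7 CPM (-0.90) and *Hilpda* at 61.0 and 38.3 CPM (-0.67). The lesser genes rest on few UMIs: 1 cell held 17 of the 63 *Slc2a1* UMIs and 14 of the 70 *Hilpda* UMIs of the WT-labelled library. *Higd1a* (-0.01), *Bnip3l* (-0.16), *Mif* (-0.34) and *Ldha* (-0.51) were among the 6 within the fold.

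Other RNA moved with the NK result. The 20 TAM markers summed to 1547 CPM in NK cells of the WT-labelled library and 976 CPM in the KO-labelled library, with 1 marker at 0 in each. The 12 neutrophil markers summed to 120.3 and 17.9 CPM, with 5 and 8 at 0, and the cell cycle genes to 1023 and 694 CPM. The median depth was 4872 and 3983 UMIs. The part of the other RNA, of cycling and of depth was not tested.

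In DCs (140 and 321 cells) the members summed to 9196 and 7991 CPM, a ratio of -0.20 (-0.23 to -0.18), which was -0.13 when centred on the median of all genes. Of 28 members, 6 were at least 1.5-fold lower in the KO-labelled library, against 6.37% of 5435 genes, and 0 higher, against 2.65%. *Ddit4* was at 85.3 and 38.9 CPM (-1.13, -1.44 to -0.82) and *Slc16a3* at 123 and 72.6 CPM (-0.76). *Bnip3* (64.9 and 38.9 CPM, -0.74), *Ndrg1* (54.0 and 34.6 CPM, -0.64), *Slc2a1* (48.3 and 31.5 CPM, -0.62) and *Hk1* (34.6 and 22.8 CPM, -0.60) were the others. With the ratios centred, or with ribosomal protein and mitochondrial genes left out of the total, 3 members were past the fold. The neutrophil markers summed to 114 and 11.4 CPM here, and their part was not tested.

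**Figure D4:**
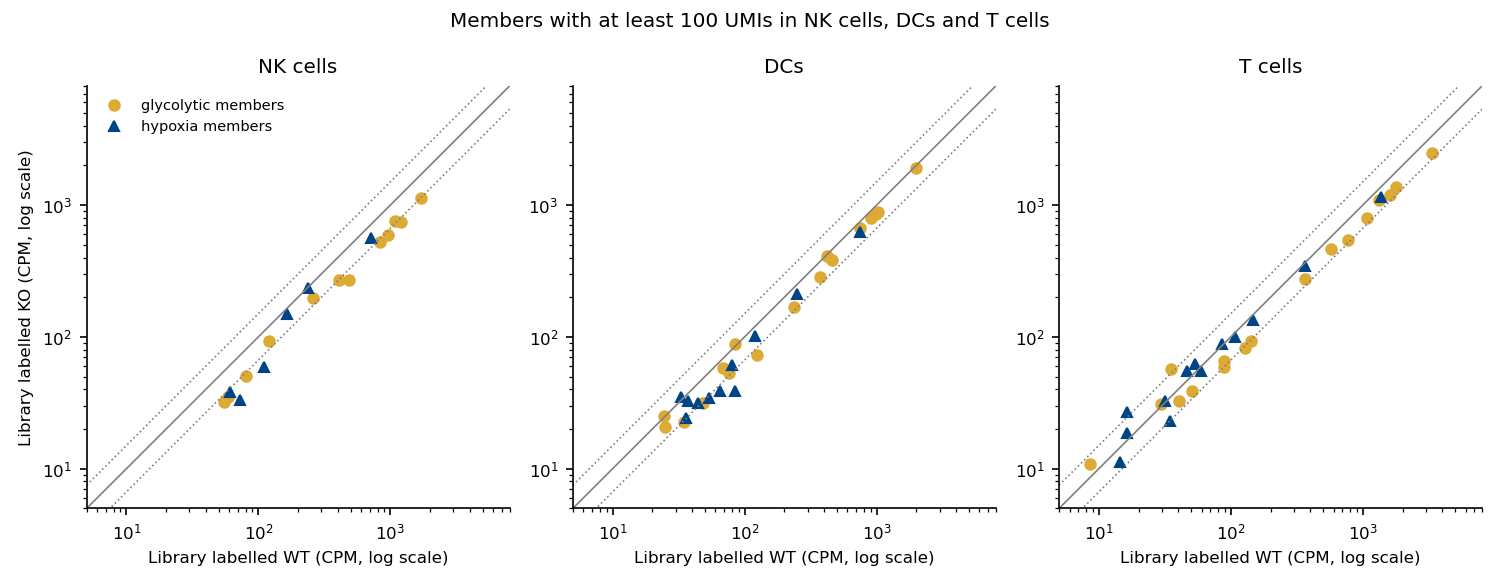
CPM of the members with at least 100 UMIs in NK cells, DCs and T cells (all cells included), the WT-labelled library on the horizontal and the KO-labelled library on the vertical log axis. Yellow circles are glycolytic and blue triangles hypoxia members, the solid line marks equal levels and the dotted lines 1.5-fold. In NK cells all 18 points lie under the solid line and 12 under the lower dotted line.

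Across single clusters, the ratio between the libraries was not of 1 kind. The sum of all members was -0.04 in clusters 0 and 6, 0.04 in cluster 3, -0.03 in clusters 9 and 10, -0.07 in cluster 11, -0.11 in cluster 5, -0.18 in cluster 2, -0.21 in cluster 7, -0.29 in cluster 1 (-0.13 without the 12 cells) and in the DCs of cluster 8, and -0.58 in NK cells. It was 0.12 in the DCs of cluster 12 and, in the clusters of fewer than 50 cells, -0.31 in cluster 13 and 0.40 in cluster 14. *Ddit4* was lower in the KO-labelled library in cluster 0 (41.0 and 23.3 CPM, -0.81), cluster 5 (90.2 and 38.2 CPM, -1.24) and cluster 8 (101 and 41.3 CPM, -1.28), and higher in cluster 3. It was also lower in NK cells and in cluster 7 (121 and 66.8 CPM, -0.86). *Ankrd37* had a positive ratio in each of the 7 clusters where it had 100 UMIs, from 0.03 to 0.47. *Hk1* had a negative one in each of its 7, from -0.70 to -0.01. Differences of these ratios between clusters were not tested.

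**Figure D5:**
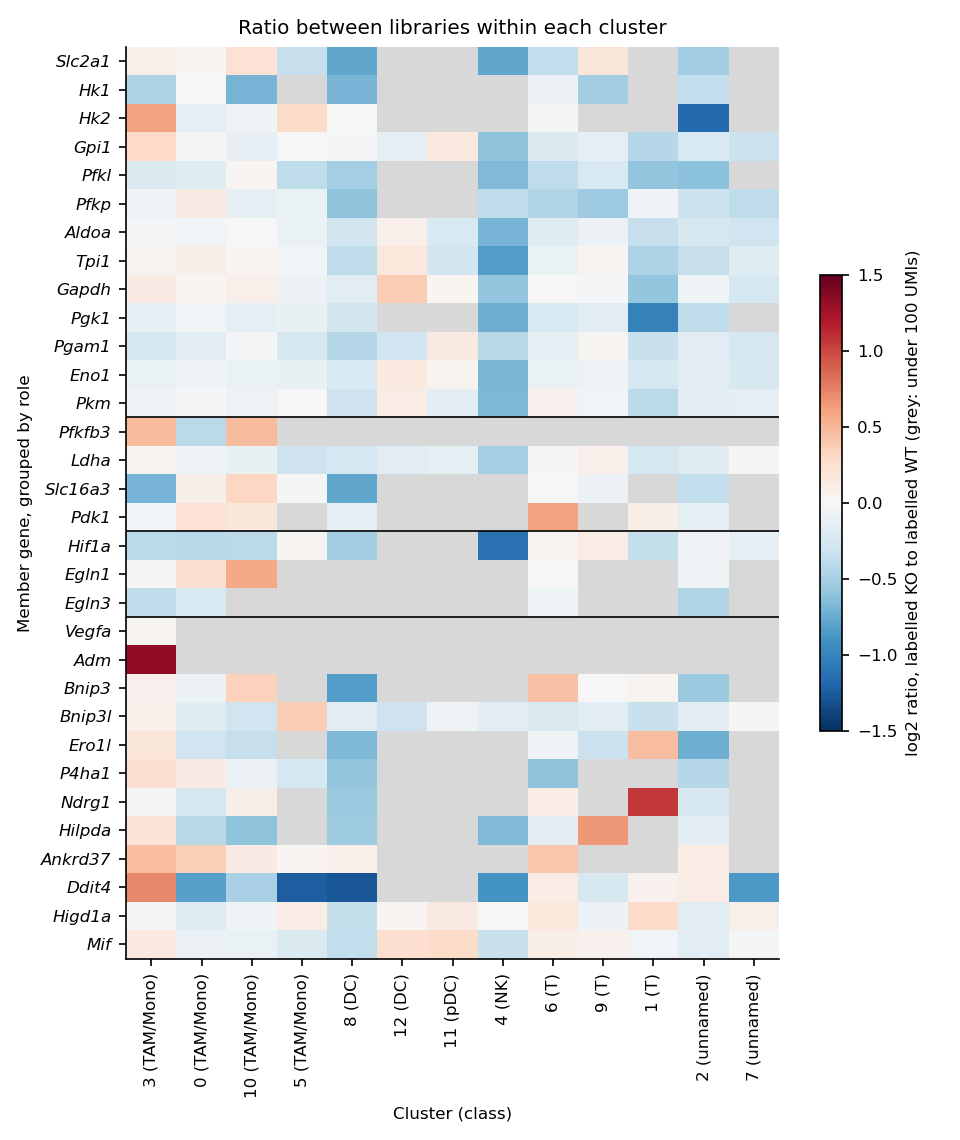
Log2 ratio of each member (rows, grouped by role) between the KO-labelled library and the WT-labelled library within each cluster of at least 50 cells (columns), all cells included. Blue is lower and red higher in the KO-labelled library, and grey marks fewer than 100 UMIs. The NK column (cluster 4) is blue for all 18 members shown, with *Hif1a* at -1.12, while cluster 3 holds both colours and the red *Ndrg1* of cluster 1 at 1.06 rests on cells with melanoma RNA.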

How the data were processed

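CD45.2+ cells of 10 combined tumors per genotype gave 1 library each. Per the submitters' processing notes and the methods, the authors used Cell Ranger with mm10, aggregated the libraries and analysed them in Seurat. The deposited values are the natural log of 1 plus UMI counts scaled to 10000 per cell by the authors, although the table is described as raw, and 100% of them came out as whole UMIs when unscaled (tolerance 0.01). These recovered counts were used. 0 cells failed the stated filter (300 UMIs, 100 genes, 5% mitochondrial), 0 columns went unused, and no doublets were called or removed.

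Cells were clustered in Seurat 5.3.0 (R 4.3.3) on 590 variable genes without the members, of which 9 were variable, with depth regressed, 13 components and resolution 0.8. A cluster was named where at least 3 markers were detected in 10% of its cells, unless the 10 genes that led it, each detected in 25% of cells or more, went against that name. UMIs were summed per class or cluster and library (Python 3.11.15, numpy 2.4.6, scipy 1.17.1, pandas 2.3.3). Ratios carry 0.5 UMIs per side and exact 95% conditional binomial intervals, levels exact Poisson and shares Clopper-Pearson intervals, all covering counting error only. Named genes were all members across clusters and the members past 1.5-fold with 100 UMIs between libraries. Of the other pathway genes, up to 5 among those with the largest ratios in each direction were named. For 1 mix of clusters, levels within clusters were averaged with the same weights in both libraries. The computation of ratios and their intervals was tested on simulated Poisson counts, which hold no spread between cells or libraries beyond counting error. The other steps were not tested in this way. Members, lists and comparisons were chosen with earlier results of these data known. Alternatives varied the fold, UMI minimum, total, centring, clustering and the cells or members included.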

Additional observations from a re-analysis of the deposited data

Results flagged for a closer look

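*Ndrg1* differed in direction between classes under the same contrast. Its log2 ratio of the KO-labelled to the WT-labelled library was -0.71 in TAM/Mono cells and -0.64 in DCs but 0.73 in T cells. The difference between classes was not tested. Without the 12 cells rich in melanoma or erythrocyte RNA, the T cell value was -0.41 (-0.90 to 0.05).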

How the results depend on the processing

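No paired analysis was possible because each genotype had 1 library, and for the same reason no replicate could be left out. Values are log2 ratios of summed members unless a count is named, "by label" means KO- to WT-labelled library, and cluster 3 stands for itself or its counterpart in another clustering, set against the other TAM/Mono cells. The by-label sum kept its direction in all alternatives run, from -0.43 to -0.01 in TAM/Mono cells (15 alternatives), -0.53 to -0.06 in T cells (16) and -0.61 to -0.46 in NK cells (14). The values nearest 0 in TAM/Mono cells and T cells, -0.01 and -0.06, were those at 1 mix of clusters. All alternatives for NK cells, DCs and cluster 3, the removal of the 12 cells and the count of clusters 2 and 7 with T cells were chosen after seeing the data. The cause of a change with a setting was not tested unless the setting itself states it.

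At 1 mix of clusters the by-label ratio was -0.012 in TAM/Mono cells, with 0 members lower and 1 higher and with *Ero1l* at 0.0052 and *Hilpda* at 0.025, both reversed, and -0.065 in T cells, with 0 lower and 0 higher. At 2-fold the members lower by label numbered 1 in TAM/Mono cells, 0 in T cells, 1 in NK cells and 1 in DCs, and 0 were higher in T cells. At that fold 17 were higher in cluster 3 of the WT-labelled library, and 0 (WT) and 1 (KO) were lower in TAM/Mono than in T cells. With a minimum of 200 UMIs, 6 were lower in NK cells.

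Centred on the median of all genes, the by-label ratio was -0.36 in TAM/Mono cells, -0.28 in T cells (0 lower) and -0.13 in DCs (3 lower), cluster 3 ratio 1.23 (WT) and 1.46 (KO), and TAM/Mono to T cells 0.58 (WT). With ribosomal protein and mitochondrial genes out of the total, it was -0.25 in TAM/Mono cells, -0.25 in T cells (0 lower) and -0.14 in DCs (3 lower), with cluster 3 at 0.88 and 1.09, TAM/Mono to T cells at 0.11 in each library and 4 members lower there in the KO-labelled library. As means over cells, it was -0.38 in TAM/Mono cells, -0.53 in T cells and -0.46 in NK cells, with cluster 3 at 1.08 and 1.32 and TAM/Mono to T cells at 0.79 and 0.94. Without the 9 abundant members, it was -0.43 in TAM/Mono cells, -0.17 in T cells, -0.51 in NK cells and -0.31 in DCs, with cluster 3 at 1.47 and 1.74 and TAM/Mono to T cells at 0.98 and 0.72.

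With 10 components, by-label ratios were -0.41 in T cells (0 higher) and -0.16 in DCs, cluster 3 was at 0.99 (WT), TAM/Mono to T cells at 0.37 (WT), and 1 member was lower there (KO). With 20 components, T cells were at -0.45 (1 higher), cluster 3 at 0.95 (WT) and TAM/Mono to T cells at 0.45 and 0.59. At resolution 0.4, T cells were at -0.40 (0 higher), cluster 3 at 0.74 and 0.71, and TAM/Mono to T cells at 0.38 (WT) with 1 lower (KO). At resolution 1.2, T cells were at -0.34 (0 higher, 0 lower), cluster 3 at 0.9993 (WT), and TAM/Mono to T cells at 0.40 and 0.44 with 1 lower (KO). Without regression of depth, T cells were at -0.40 (1 higher) with *Ndrg1* reversed at -0.32, cluster 3 at 0.93 (WT) and TAM/Mono to T cells at 0.45 and 0.55. With the members kept among the variable genes, cluster 3 was at 1.01 (WT).

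Without cells holding T and myeloid RNA, by-label ratios were -0.33 in TAM/Mono cells, -0.34 in T cells (2 lower) and -0.17 in DCs, with cluster 3 at 1.05 and 1.18 and TAM/Mono to T cells at 0.78 and 0.79. Without cells holding a melanoma UMI, they were -0.34 in TAM/Mono cells and -0.43 in T cells (1 higher), with *Ndrg1* reversed there at -0.26, cluster 3 at 1.05 and 1.23 and TAM/Mono to T cells at 0.46 and 0.55. Without the 12 cells, T cells were at -0.40 (1 higher) with *Ndrg1* reversed at -0.41, and TAM/Mono to T cells at 0.44 and 0.54. With clusters 2 and 7 counted as T cells, T cells were at -0.40 (0 higher) and TAM/Mono to T cells at 0.38 (WT) with 1 lower (KO).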

Other observations

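Other genes of both pathways, from lists outside the 32 members, were counted between the libraries in TAM/Mono cells. Of 20 other glycolysis genes with at least 100 UMIs, 1 was at least 1.5-fold higher in the KO-labelled library, *Ldhb*, the lactate dehydrogenase subunit of oxidative tissues, at 6.76 and 12.7 CPM (0.91), and 0 were lower. Of 35 other hypoxia and HIF genes, 7 were lower and 1 higher. Over all genes counted there, 4.85% were lower and 4.2% higher. The lower ones included *Nos2* (39.0 and 5.67 CPM, -2.77), *Arg1* (1169 and 282 CPM, -2.05) and *Hmox1* (1832 and 858 CPM, -1.10), and the higher one was *Ppfia4* (0.76). These are pooled values over cells with a different mix of clusters in each library. *Hmox1* stood at 3865 and 2305 CPM in cluster 3 and at 954 and 656 CPM in the other TAM/Mono cells, and *Nos2* at 108 and 32.8 CPM in cluster 3 and at 9.44 and 1.90 CPM in the others. *Arg1* was at 3142 and 1253 CPM in cluster 3 and at 316 and 147 CPM in the others. The medians of both lists, 0.07 and -0.05, lay near that of all genes, 0.06.

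In T cells *Ldhb* was again the single glycolysis gene past the fold, of 16 counted, at 1.08, and at 0.59 without the 12 cells rich in melanoma or erythrocyte RNA. Of 24 other hypoxia and HIF genes, 2 were higher, the histone demethylase genes *Kdm3a* (1.01) and *Kdm6b* (0.63), and 7 were lower. The lower ones included *Arg1* (24.1 and 1.87 CPM, -3.62), *Cited2*, a competitor of HIF for its coactivator (-1.46), and *Plod2*, a lysyl hydroxylase (-1.06). *Hmox1* (52.35 and 26.8 CPM, -0.96) and *Bhlhe40* (-0.74) were also lower. In TAM/Mono cells *Arg1* stood at 1169 and 282 CPM and *Hmox1* at 1832 and 858 CPM. The part of macrophage RNA in the T cell ratios was not tested. Without the 12 cells 2 were higher and 6 lower of 23, with *Kdm3a* at 0.88, *Kdm6b* at 0.63, *Cited2* at -1.46, *Hmox1* at -1.13 and *Bhlhe40* at -0.79, and *Plod2* had too few UMIs to be counted. Over all genes counted in T cells, 4.59% were higher and 7.76% lower.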
